A study of Mus musculus with 6 samples.

Results

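ATF4 and CHOP are transcription factors of the integrated stress response, and 10 genes that carry out or spread their output were followed here in CD8+ T cells treated with sphingosine-1-phosphate (S1P). The genes are Ddit3, Atf3, Atf5, Cebpb, Cebpg, Trib3, Chac1, Sesn2, Ddit4 and Stc2. They were chosen by symbol, through the GENCODE annotation of the Ensembl identifiers, out of 56941 identifiers in the count table and 13299 with enough counts for a test. Ddit3 has 2 identifiers in the table, of which ENSMUSG00000025408 held 1355 counts over the 6 samples and ENSMUSG00000116429 held 0, so the former was used. The study had already singled out Ddit3, Atf3, Trib3, Chac1 and Cebpb on these samples, which makes their direction no independent evidence.

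RNA was sequenced from 6 samples of mouse T cells, and the sample labels give naive CD8+ T cells purified from the spleens of B6 mice, without an age. All 6 cultures were kept for 3 days on antibodies to CD3 and CD28 with IL-2 at 100 U/ml, which activate T cells and let them divide. S1P at 5 µM was given to 3 cultures 24 h after activation began, and the other 3 received vehicle at that time. S1P is a lipid of blood and lymph that signals through S1PR1 and related receptors. The labels name no genetic change in the mice, the treatment was a single dose read at a single time, and the culture section of the study's methods names purified naive T cells or whole splenocytes as starting material.

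The vehicle-treated samples had 13636095 to 17089831 counts each and the S1P-treated samples 12048880 to 17384084. The share of counts on mitochondrially encoded genes was 7.80% in S1P-treated replicate 2 and 4.10% to 4.93% in the other 5 samples. All 7 T cell markers that include Cd8a and Cd8b1 were detected, with a summed level of 1300 to 1470 CPM (counts scaled to library size) with vehicle and 1200 to 1370 CPM with S1P, and within them Cd8a and Cd8b1 fell by 0.67 and 0.55 in log2 units while Cd2 rose by 0.33. All 5 B cell markers were detected as well, at 510 to 635 CPM with vehicle and 522 to 606 CPM with S1P, and all 4 CD4 T cell markers, at 229 to 272 and 252 to 319 CPM. Among these, the CD4 T cell markers Cd40lg and Zbtb7b rose by 0.50 and 0.37 in log2 units and the B cell marker Ms4a1 fell by 0.39. RNA of B cell and CD4 T cell genes was thus present in all 6 samples, and its part in the results was not tested. In these bulk samples, fewer cells of a type and less RNA per cell cannot be told apart. Of 8 myeloid markers, S100a8 and S100a9 were at 0 in every sample and the sum of all 8 was at most 1.23 CPM, while the NK cell markers summed to 23.4 to 38.7 and 30.9 to 31.2 CPM.

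In the integrated stress response, kinases that sense amino acid shortage, double-stranded RNA, haem shortage or unfolded protein in the endoplasmic reticulum (ER) phosphorylate the initiation factor eIF2α. General translation then falls, while the mRNA of Atf4 is translated better because of short reading frames ahead of its coding sequence. ATF4 protein pairs with C/EBP family partners on C/EBP-ATF response elements and raises genes of amino acid supply, and it raises Ddit3, which encodes CHOP. CHOP acts in the later phase of the response, where it is known for its role in cell death and in the restart of translation. In T cells this branch is engaged by nutrient shortage and by ER stress in tumours.

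To show where the response element lies, the promoters of the 10 genes were searched. RefSeq promoter windows (GRCm38.p6) were found for all 10, and the 250 bases before each start were read for the 8-base core TGATGNAA on either strand. Atf3 and Chac1 held it, 2 of 10 genes, where 3.91% of all 27025 genes did in windows of the same length. In both the core is on the strand opposite to the gene, so it reads TTGCATCA along the gene. The capitals mark it in these stretches, whose positions are those of an exact match in GRCm39.

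Atf3: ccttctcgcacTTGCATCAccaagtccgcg

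Chac1: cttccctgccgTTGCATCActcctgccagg

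The Atf3 stretch is at chr1:190915622-190915651 on the minus strand, and its core begins at position -110 from the RefSeq start at 190915530. In GENCODE the gene reaches farther upstream, to 190950241, and no window was searched there. The Chac1 stretch is at chr2:119181519-119181548 on the plus strand, with the core from position -193, and an exon of a longer GENCODE transcript of Chac1 also covers it. The letters CCACG, which make up only a part of the ER stress element, were searched on both strands in the same windows. They were in 7 of 10 genes (Atf5, Cebpb, Cebpg, Chac1, Ddit4, Sesn2 and Stc2) and in 31% of all genes. The rest of that element was not searched, so a match does not show a whole element. The cAMP response element core TGACGTCA was in 0 of 10 and in 1.77% of all genes. These letters describe the sequence and show no binding, and a window without them says nothing of elements farther away or with other letters.

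All 10 genes rose after S1P. A gene counted as risen or fallen where edgeR's quasi-likelihood test gave a Benjamini-Hochberg adjusted p (padj, over all genes tested) no higher than 0.05 and the log2 fold change (log2FC, S1P against vehicle) was 0.3 or more in size. Of all genes tested, 12.7% rose and 10.4% fell by this rule. The log2FC values of the 10 lay between 0.55 and 1.65 with a median of 0.85, where the median over all tested genes was 0.01. In every one of the 10 genes all 3 S1P-treated samples lay above all 3 vehicle-treated samples, an order found in 23% of all genes tested. Atf3, Trib3, Ddit4 and Stc2 rose by at least 1 on the log2 scale, which 2.88% of all genes did with a padj no higher than 0.05. The normalized counts of the 10 genes, summed, were 2901, 3030 and 2649 in vehicle-treated replicates 1, 2 and 3 and 6305, 5773 and 5879 in the S1P-treated ones. The labels call the samples biological replicates without naming separate animals, so the p-values measure the spread between these samples.

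**Figure D1:**
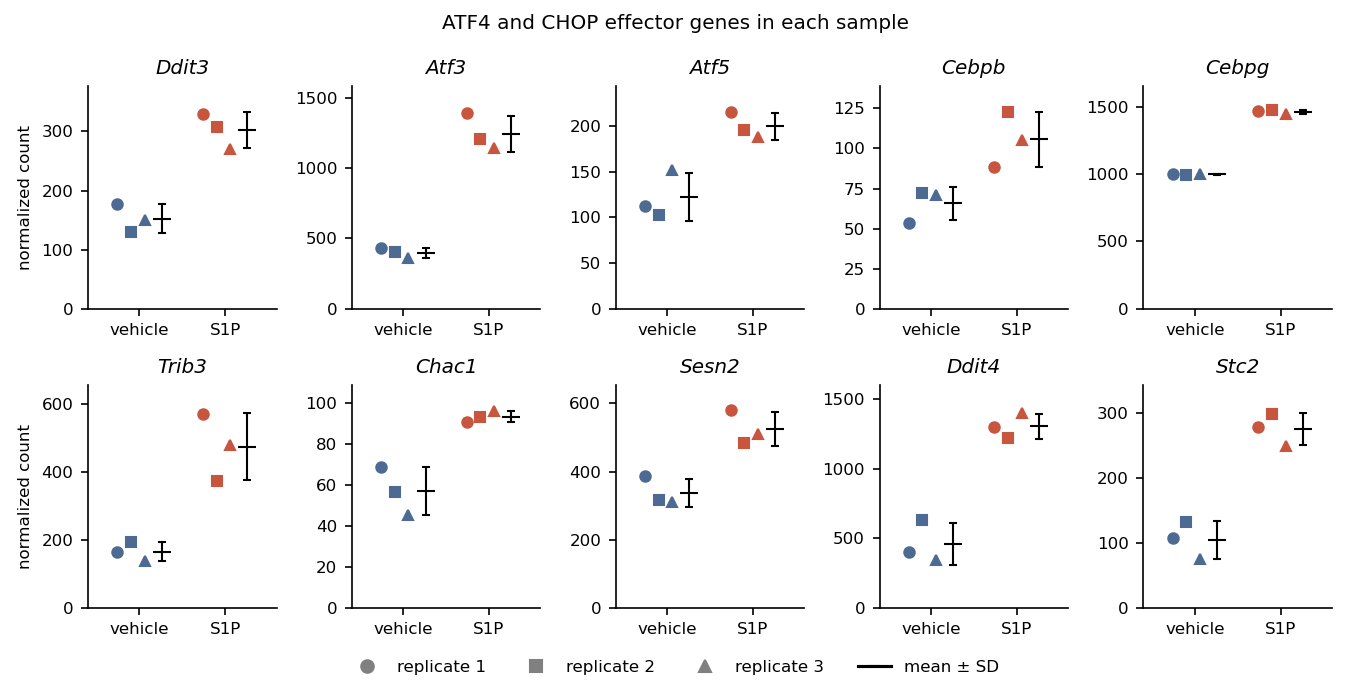
Normalized count (counts scaled by TMM library size, linear axis from 0) of each of the 10 genes in the 3 vehicle-treated (blue) and 3 S1P-treated (red) samples, with the replicate number as marker shape and the mean ± SD beside each group. In each of the 10 panels the lowest red point lies above the highest blue point.

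The bZIP transcription factors came first. Ddit3 encodes CHOP, a member of the C/EBP family that works as a dimer with other bZIP proteins. Its normalized counts were 178, 129.7 and 149.7 in vehicle-treated replicates 1, 2 and 3 and 329, 308 and 269.6 in S1P-treated replicates 1, 2 and 3. The lowest S1P-treated sample stood 1.52-fold above the highest vehicle-treated one, and replicate 1 was the highest of each group. Ddit3 (chromosome 10 from 127124268 to 127132163 of GRCm39, plus strand) rose from 152 ± 24.0 to 302 ± 30.2 (SD, n = 3 each), a log2FC of 0.98 (SE 0.13, edgeR padj = 0.000337). Each of the 979 bases of its canonical transcript also lies under exons of genes on the other strand, Mars1, Mbd6 and Gm4189. The libraries keep the strand, but the strand setting of the counting is not given in the sources used here, and without it reads of Ddit3 and of these genes could not be told apart. Mars1, which encodes the methionyl-tRNA synthetase, went from 2424 ± 62.3 to 2144 ± 201 (SD, n = 3 each; log2FC -0.18, edgeR padj = 0.108), and Mbd6 had a log2FC of 0.25 (edgeR padj = 0.0911). Gm4189 had 2 to 6 counts in each sample.

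Atf3 encodes another bZIP factor, which CHOP and ATF4 can both induce and which represses many promoters as a homodimer. Its normalized counts were 432.5, 402 and 359 with vehicle and 1389, 1204 and 1142 with S1P. Each S1P-treated sample held at least 2.64 times the count of the highest vehicle-treated sample, the widest gap of the 10 genes. Atf3 (ENSMUSG00000026628, chromosome 1 from 190902493 to 190950241, minus strand) had a log2FC of 1.65 (SE 0.10, edgeR padj = 6.42e-06). It ranked 117th of all tested genes by fold change, with 0.872% of genes above it.

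Atf5, a factor whose translation is controlled like that of Atf4 and which is known in the mitochondrial stress response, had normalized counts of 112, 103 and 152 with vehicle and 216, 195 and 187.5 with S1P. Vehicle-treated replicate 3 was well above the other vehicle-treated samples and came nearest to the S1P-treated ones. The log2FC of Atf5 (ENSMUSG00000038539, chromosome 7 from 44461680 to 44466082, minus strand) was 0.71 (SE 0.15, edgeR padj = 0.00515), and 8.36% of its exon bases lie under Nup62 and Il4i1 on the other strand.

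Cebpb and Cebpg encode C/EBP proteins that pair with ATF4 and CHOP, and C/EBPγ lacks an activation domain. Cebpb had normalized counts of 53.5, 72.4 and 71.1 with vehicle and 88.7, 123 and 105 with S1P. Replicate 1 was the lowest of each group, and the gap between the groups was the narrowest of the 10 genes at 1.23-fold. Cebpb (ENSMUSG00000056501, chromosome 2 from 167530835 to 167532338, plus strand) had a log2FC of 0.68 (SE 0.18, edgeR padj = 0.017), and 20.7% of its exon bases lie under Peds1 on the other strand, which had a log2FC of -0.15 (edgeR padj = 0.19). Its call was lost without vehicle-treated replicate 1 (0.54, edgeR padj = 0.0822) and without S1P-treated replicate 3 (0.67, edgeR padj = 0.0541).

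Cebpg was the steadiest gene, with 998, 990.3 and 1003 normalized counts with vehicle and 1468, 1473 and 1442 with S1P. The samples of a group were nearly equal, with a coefficient of variation of 0.62% among vehicle-treated and 1.15% among S1P-treated samples. Cebpg (ENSMUSG00000056216, chromosome 7 from 34745847 to 34756011, minus strand) had the smallest fold change of the 10 genes, 0.55 on the log2 scale (SE 0.06, edgeR padj = 0.000128), and 10.5% of all tested genes had a larger one.

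The other 5 genes encode proteins that act on metabolism, growth signals and the response itself. Trib3 encodes a pseudokinase that ATF4 and CHOP induce and that binds ATF4 and Akt. Its normalized counts were 165, 192 and 136.5 with vehicle and 569.8, 372.5 and 479 with S1P. The S1P-treated samples were spread widely, with replicate 1 highest and replicate 2 lowest, and the lowest was still 1.94 times the highest vehicle-treated sample. Trib3 (ENSMUSG00000032715, chromosome 2 from 152179337 to 152191958, minus strand) had a log2FC of 1.54 (SE 0.16, edgeR padj = 8.13e-05), which stayed between 1.38 and 1.69 without each sample in turn.

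Chac1 encodes an enzyme that breaks down glutathione in the cytosol. Its normalized counts were 68.8, 56.2 and 45.5 with vehicle and 90.4, 93.1 and 96.05 with S1P. The vehicle-treated samples differed more among themselves, with a coefficient of variation of 20.6%, than the S1P-treated ones at 3.03%. Chac1 (ENSMUSG00000027313, chromosome 2 from 119180757 to 119184866, plus strand) rose from 56.8 ± 11.7 to 93.2 ± 2.82 (SD, n = 3 each), a log2FC of 0.70 (SE 0.18, edgeR padj = 0.0129), and its call was lost without vehicle-treated replicate 3 (0.56, edgeR padj = 0.0635).

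Sesn2 and Ddit4 encode inhibitors of the growth kinase complex mTORC1, Sestrin 2 through leucine sensing and REDD1 through the TSC complex. Sesn2 had 386, 318 and 312 normalized counts with vehicle and 579.7, 484 and 509 with S1P. Replicate 1 was the highest of each group and the gap between the groups was 1.25-fold. The log2FC of Sesn2 (ENSMUSG00000028893, chromosome 4 from 132219335 to 132237815, minus strand) was 0.63 (SE 0.11, edgeR padj = 0.00137).

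Ddit4 (ENSMUSG00000020108, chromosome 10 from 59785491 to 59788492, minus strand) had 400.2, 633.5 and 346 normalized counts with vehicle and 1296, 1221 and 1399 with S1P. Vehicle-treated replicate 2 stood 1.83-fold above replicate 3, the widest spread among vehicle-treated samples of the 10 genes, and below every S1P-treated sample. Ddit4 rose from 459.9 ± 153 to 1305 ± 89.4 (SD, n = 3 each), a log2FC of 1.51 (SE 0.17, edgeR padj = 0.000122) that lay between 1.34 and 1.80 without each sample in turn.

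Stc2 encodes stanniocalcin 2, a secreted glycoprotein that is induced by ER stress and by hypoxia. Its normalized counts were 108, 133 and 74.9 with vehicle and 279, 299 and 249 with S1P. Replicate 2 was the highest and replicate 3 the lowest of each group, and the groups were 1.87-fold apart at their nearest samples. Stc2 (ENSMUSG00000020303, chromosome 11 from 31307307 to 31320124, minus strand) had a log2FC of 1.39 (SE 0.17, edgeR padj = 0.000208).

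**Figure D2:**
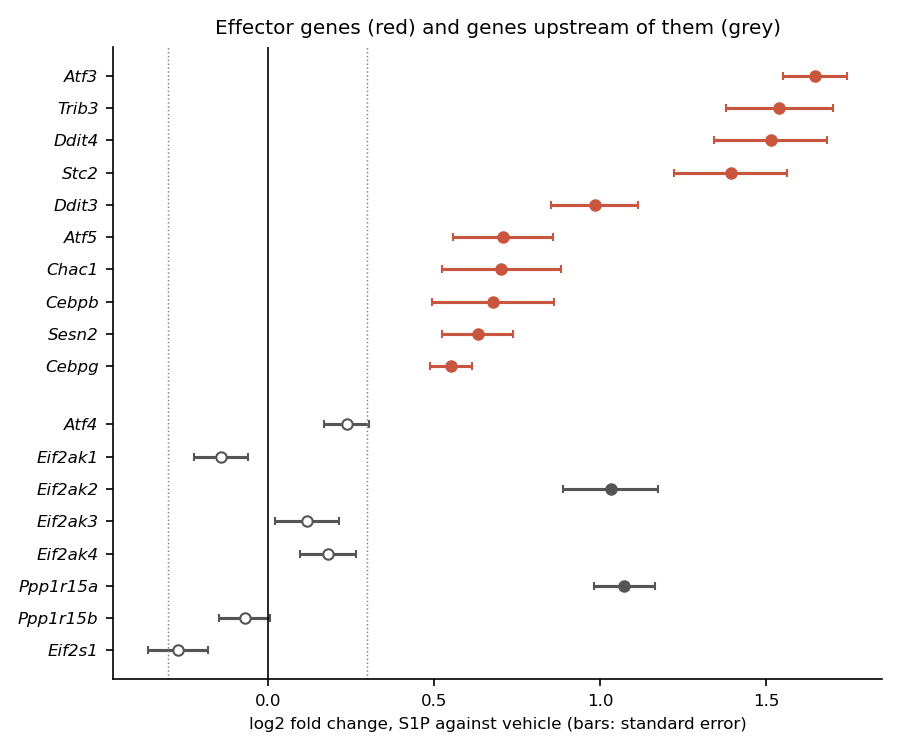
Log2FC of normalized counts, S1P against vehicle, with its SE (bars) for the 10 effector genes (red) and 8 genes upstream of them (grey), filled where padj was no higher than 0.05 and the change 0.3 or more in size (dotted lines). The effector genes lie between 0.55 and 1.65, and of the upstream genes Eif2ak2 and Ppp1r15a are filled.

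Levels were compared between genes per length, as RPKM (reads scaled to the length of the canonical transcript in kilobases and to library size). With vehicle, Ddit4 (17.7 RPKM), Cebpg (14.3), Atf3 (13.6) and Ddit3 (10.6) led by mean, and neighbours in this order overlapped in their 3 samples. Sesn2 (6.59 RPKM), Trib3 (5.34) and Atf5 (4.56) followed below Ddit3 without overlap, and Cebpb (2.96 RPKM), Chac1 (2.32) and Stc2 (1.79) were lowest. With S1P the order of levels was Ddit4 (50.3 RPKM), Atf3 (42.6), Cebpg (21.0), Ddit3 (20.9), Trib3 (15.4), Sesn2 (10.2), Atf5 (7.45), Cebpb (4.77), Stc2 (4.69) and Chac1 (3.80). The pairs Ddit4 and Atf3, Cebpg and Ddit3, and Cebpb and Stc2 overlapped, and the other neighbours did not. The order depends on the length used. Over the merged length of all exons, an alternative added after the data were seen, Ddit3 was at 1.85 RPKM with vehicle and 3.68 RPKM with S1P, below Cebpb by mean in each group, because its merged exons span 5579 bases against 979 in the canonical transcript. On that scale Cebpg (12 RPKM) came before Ddit4 (11.5) with vehicle and Atf3 (34.6 RPKM) before Ddit4 (32.6) with S1P, and each of these pairs overlapped. Trib3 (9.49 RPKM) overlapped with Sesn2 (7.83) with S1P there. On both scales Atf3 lay above Cebpg with S1P without overlap, and Chac1 and Stc2 were among the 3 lowest in each group.

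**Figure D3:**
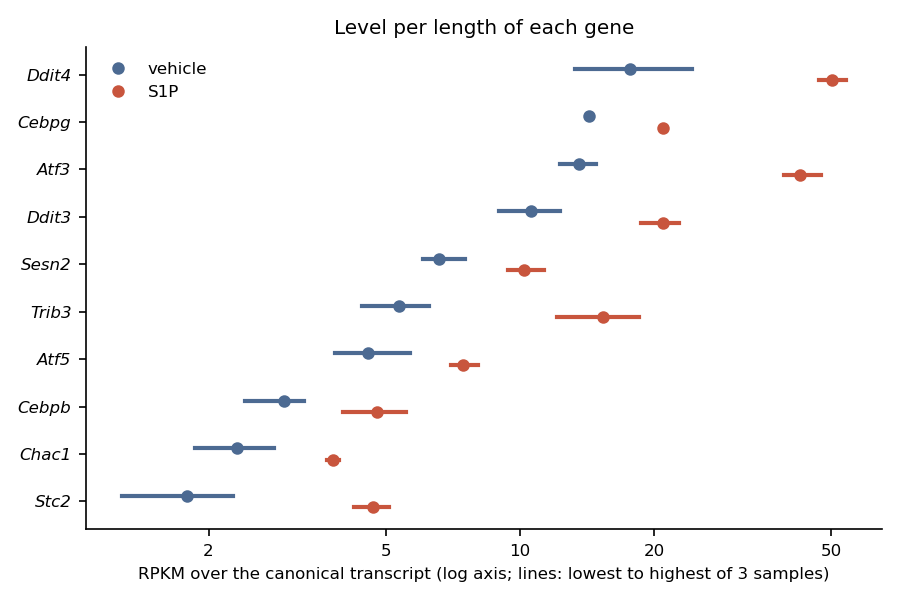
Level of each of the 10 genes in RPKM over the canonical transcript (log axis), as the mean (point) and the range of 3 samples (line) with vehicle (blue) and with S1P (red), ordered by the vehicle level. Ddit4 is highest in both groups on this scale, though not over the merged length of all exons, and Stc2, lowest with vehicle at 1.79 RPKM, is at 4.69 RPKM with S1P.

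No sample was highest or lowest throughout. With S1P, replicate 1 was the highest for 5 genes (Ddit3, Atf3, Atf5, Trib3 and Sesn2), replicate 2 for 3 and replicate 3 for 2. With vehicle, replicate 3 was the lowest for 6 (Atf3, Trib3, Chac1, Sesn2, Ddit4 and Stc2). S1P-treated replicate 2, the sample with the high mitochondrial share, was the lowest of its group for Trib3, Sesn2 and Ddit4, and all 10 genes passed both thresholds without it. This sample also stood apart by the chi-square per gene, a measure of how far 2 samples differ. That value was 31.4 against S1P-treated replicate 1 and 17.8 against replicate 3, where replicates 1 and 3 had 5.97 between them.

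Trib3, Ddit4 and Stc2 shared an order among vehicle-treated samples, with replicate 2 highest and replicate 3 lowest, that was noticed after the values were seen and is given with no test. Genes known to be induced in hypoxia, a list in which none of the 3 stands although Ddit4 and Stc2 are known to respond to hypoxia too, had this order in 16 of 18 cases (88.9%), where 17.9% of all tested genes did. It was found in 3 of the 10 effector genes (30.0%), in 5 of 11 genes linked to CHOP (45.5%), in 8 of 22 XBP1 and ATF6 genes (36.4%) and in 7 of 20 genes of amino acid supply (35%). Of the hypoxia genes, 17 of 18 tested rose after S1P, with a median log2FC of 1.18. P4ha2, a collagen prolyl hydroxylase subunit, rose by 2.55 in log2 units (edgeR padj = 4.15e-05) and Ndrg1 by 2.29 (edgeR padj = 1.27e-05). Ldha, chosen after its value was seen as the gene that did not pass, had a log2FC of 0.24 (edgeR padj = 0.0853), and Car9 had too few counts for a test. Between the groups, the hypoxia genes that passed rose as all 10 effector genes did. Trib3, Ddit4 and Stc2 were picked for their order among vehicle-treated samples, so sharing it with hypoxia genes is no result about these 3. The part of the hypoxia genes in the result was not tested.

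**Figure D4:**
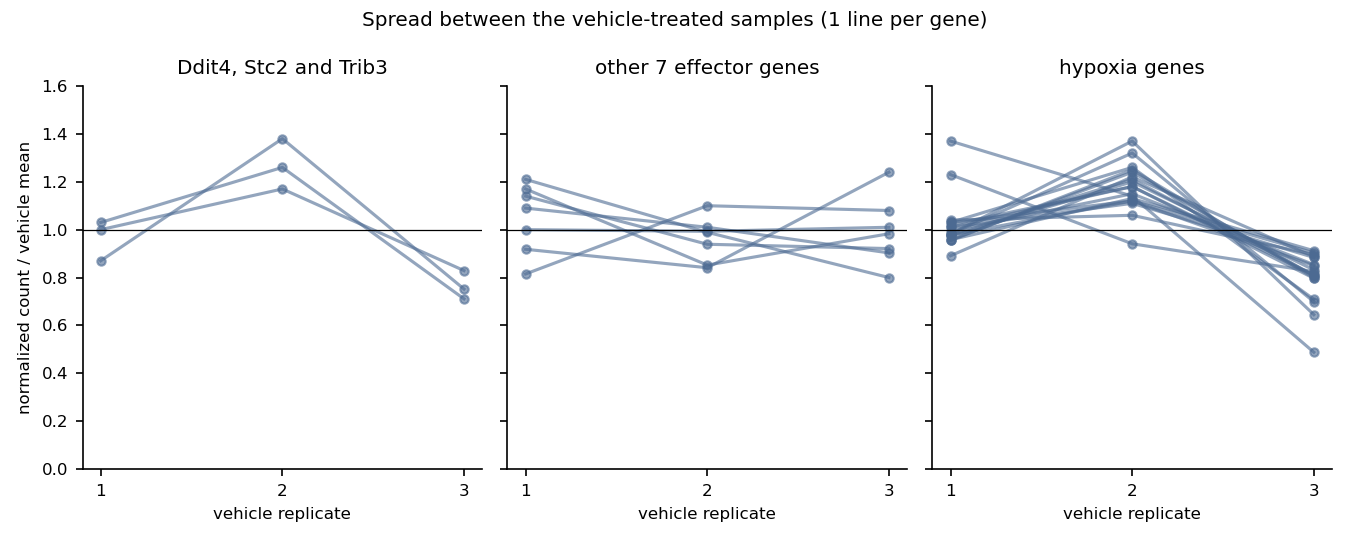
Normalized count of each gene divided by its mean over the 3 vehicle-treated samples, by vehicle replicate, with 1 line per gene to tie its points together (replicates have no order). Ddit4, Stc2 and Trib3 (left) and 16 of 18 hypoxia genes (right) are highest in replicate 2 and lowest in replicate 3, and the other 7 effector genes (centre) do not have that order.

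Upstream of the 10 genes, Atf4 and the eIF2α kinases and phosphatases were read in the same way. Atf4 had 4802, 4941 and 4762 normalized counts with vehicle and 5988, 5351 and 5759 with S1P. The groups did not overlap, and the log2FC of 0.24 (SE 0.07, edgeR padj = 0.022) was under the threshold of 0.3. Eif2ak3, which encodes the ER stress kinase PERK, went from 407 ± 20.4 to 439.7 ± 46.0 (SD, n = 3 each; log2FC 0.12, edgeR padj = 0.383), and its groups overlapped. Of the 8 upstream genes 2 rose and the rest did not meet both thresholds, with a median log2FC of 0.15. The 2 were Eif2ak2, the double-stranded RNA kinase PKR, which the study had also picked on these samples, with a log2FC of 1.03 (edgeR padj = 0.000443), and Ppp1r15a, the CHOP-induced phosphatase subunit GADD34 that removes phosphate from eIF2α, with 1.07 (edgeR padj = 3.05e-05). Eif2s1, which encodes eIF2α and was named after its value was seen, had a log2FC of -0.27 (edgeR padj = 0.0417), smaller in size than the threshold. While 0 upstream genes fell in the main fit, 1 did without S1P-treated replicate 2, with scaling by total count and with no filter on low counts. Counts of mRNA do not measure phosphorylation or the translation of Atf4.

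Among 11 genes linked to CHOP, 8 rose, with a median log2FC of 0.67. The study had picked Ero1a, Pmaip1, Map3k8, Map3k13 and Map3k15 of this list on these samples. It linked the Map3k genes to CHOP in its own later experiments. The count of 8 and the median are thus no independent evidence on CHOP. Ero1a, an ER oxidase that is also induced in hypoxia, rose by 1.50 in log2 units (edgeR padj = 2.23e-05), next to Ppp1r15a. The 3 that did not pass, named after their values were seen, encode cell death proteins: Tnfrsf10b, the death receptor DR5, had a log2FC of -0.08 (edgeR padj = 0.502), Bcl2l11, which encodes BIM, -0.16 (0.332) and Bbc3, which encodes PUMA, 0.18 (0.603). The study used the DR5 gene as the positive control in its assay of CHOP binding to promoters, which is a measure other than mRNA. Pmaip1, which encodes the cell death protein NOXA and was named after its value was seen, rose by 0.52 in log2 units (edgeR padj = 0.00791). Bcl2, a survival gene known to be repressed by CHOP, was on the list too, also named after its value was seen, and rose by 0.67 in log2 units (edgeR padj = 0.000132).

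Of 20 genes of amino acid synthesis and transport that ATF4 is known to drive, 9 rose and the rest did not meet both thresholds, and the median log2FC was 0.22. Slc7a11, the cystine importer, rose most, with raw counts of 55, 42 and 37 with vehicle and 178, 98 and 106 with S1P, a log2FC of 1.65 (edgeR padj = 7.9e-05). Cth, which makes cysteine from cystathionine, rose by 1.42 in log2 units (edgeR padj = 4.67e-05). The enzymes of serine synthesis and of mitochondrial folate metabolism, named after their values were seen, did not pass: log2FC values were -0.11 for Phgdh, 0.03 for Psat1, 0.05 for Psph, -0.02 for Shmt2 and 0.23 for Mthfd2. Of 12 tRNA synthetase genes 2 rose, Nars1 (log2FC 0.33, edgeR padj = 0.00841) and Sars1 (0.33, edgeR padj = 0.00657), with a median of 0.13, and each lost its call in 3 or fewer alternatives, among them the fit without vehicle-treated replicate 3. Of 9 tested genes on a list of other ATF4-linked genes 6 rose, with a median of 0.60. Vldlr, a lipoprotein receptor, had a log2FC of 3.29 (edgeR padj = 3.62e-05), Nupr1, which has few counts and was named after its value was seen, 2.49 (edgeR padj = 0.00032), and Vegfa, a hypoxia gene as well, 1.40 (edgeR padj = 3.95e-05). Gdf15 and Fgf21 of this list had too few counts for a test.

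The chaperone branch of the ER stress response is run by XBP1 and ATF6. Of its 22 listed genes 2 rose and 6 fell, with a median log2FC of -0.18. Sdf2l1 fell by 0.72 in log2 units (edgeR padj = 0.000542) and Hyou1, an ER chaperone, fell by 0.44 (edgeR padj = 0.00109). Dnajb9 (0.43, edgeR padj = 0.0287) and Herpud1 (0.34, edgeR padj = 0.0143) rose, but lost their calls on leaving out single samples, Dnajb9 for 3 of the 6 and Herpud1 for 5. The difference between these lists was not tested.

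Relatives of the 10 genes did not share their direction throughout. Of 11 paralogues 8 had enough counts, 2 rose and 1 fell, with a median log2FC of 0.40. Trib2 rose by 0.70 in log2 units (edgeR padj = 0.00035) while Trib1 fell by 0.56 (edgeR padj = 0.00498), beside the 1.54 of Trib3. Stc1, outside the rule for named genes and chosen after its values were seen, had raw counts of 2, 5 and 2 with vehicle and 127, 80 and 68 with S1P (edgeR padj = 1.1e-05), and its fitted log2FC of 5.01, the largest of all tested genes, depends on the prior count. Sesn1 (0.04, edgeR padj = 0.701), Sesn3 (0.20, edgeR padj = 0.0421) and Chac2 (0.34, edgeR padj = 0.0924) did not meet both thresholds. Of 18 other bZIP factors tested, 4 rose and 1 fell, with a median of 0.09. Jun, a partner of ATF3 in AP-1, rose by 1.27 (edgeR padj = 4.04e-05) and Creb3l2, which the study had picked on these samples, by 0.80 (edgeR padj = 0.00219), and Atf6b fell by 0.57 (edgeR padj = 0.00116).

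**Figure D5:**
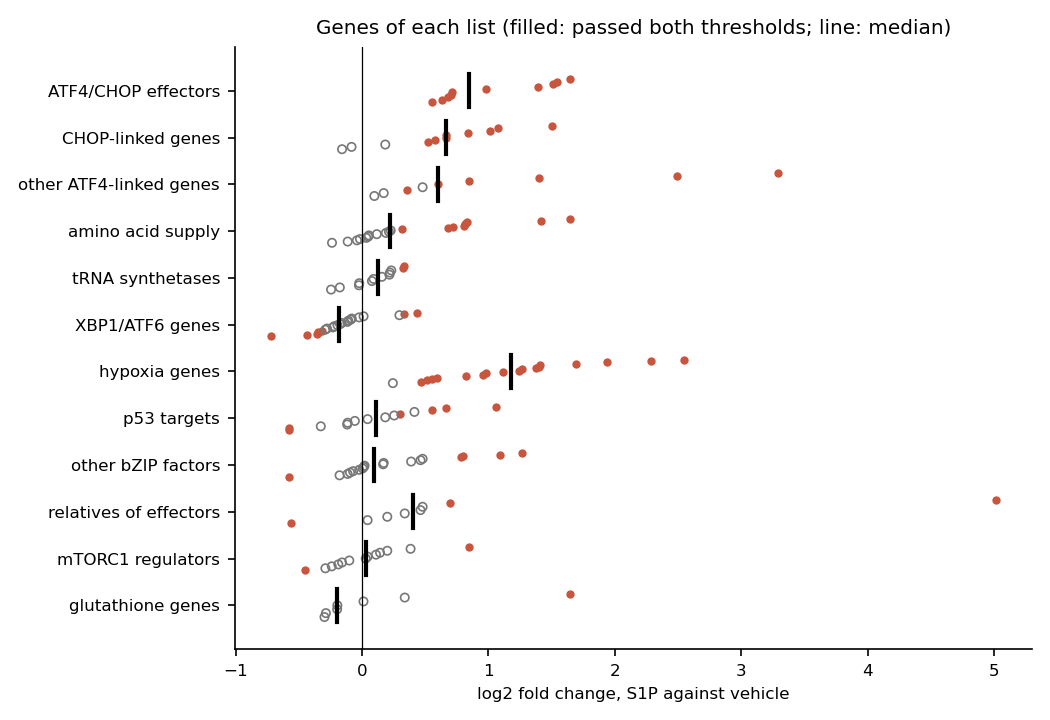
Log2FC, S1P against vehicle, of each tested gene of the 10 effector genes (top row) and of 11 other lists, filled where both thresholds were met, with the median of each list as a vertical line. The effector row lies wholly above 0.5, the hypoxia row has its median at 1.18 and the XBP1 and ATF6 row at -0.18, and the point at 5.01 is Stc1.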

How the data were processed

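Counts of 6 samples, 3 treated with S1P and 3 with vehicle, were used. Libraries of poly(A) RNA kept the strand and were read as pairs. The authors used Trim Galore for trimming, STAR for alignment and featureCounts for counting per gene, on GRCm39 per the submitters' processing notes. The deposited values are raw whole-number counts, and the annotation release, strand setting and treatment of multiply mapped reads are not given in the sources used here. Groups came from the sample labels.

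Of 56941 identifiers 34414 had a count, and 56323 had a symbol in GENCODE vM39 (GRCm39). Genes were filtered with filterByExpr (13299 kept), scaled with TMM factors and compared between treatments by the quasi-likelihood F-test of edgeR 4.0.16 (limma 3.58.1, R 4.3.3), without covariates. P-values were adjusted by Benjamini-Hochberg over all genes kept (padj). A gene rose or fell where padj was no higher than 0.05 and the log2 fold change (log2FC) was 0.3 or more in size, as in the study. Normalized counts are scaled to the mean effective library of 14739556. RPKM used the length of the Ensembl canonical transcript, and that of all exons merged as an alternative added later. The common biological coefficient of variation was 0.0826, and genes with few counts carry more counting error.

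The 10 genes, the other lists and the tests were chosen with earlier results of these data known. Named genes are the 10, Atf4 and Eif2ak3, and from each other list the 2 largest rises and 2 largest falls among genes that passed whose mean log2 CPM was 1 or more; others are said to be chosen after their values were seen. Alternatives were DESeq2 1.42.0, limma-voom, other scaling factors, other filters on low counts, the replicate number as a block, other thresholds, the sum of both Ddit3 identifiers and the fit without each sample.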

Additional observations from a re-analysis of the deposited data

How the results depend on the processing

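Over 141 comparisons of the 10 genes with an alternative, 138 kept their direction and side of the thresholds, 3 lost the call (2 for Cebpb and 1 for Chac1, given above) and 0 reversed. With a log2FC of at least 1, 383 genes were higher, 82 lower and 4 of the 10 genes higher. Without each sample in turn, 1158 to 1736 genes were higher and 961 to 1492 lower, and 9 to 10 of the 10 genes were higher and 0 lower. DESeq2 gave 1296 higher and 1357 lower genes, upper-quartile factors 1838 and 1206, and scaling by total count 1498 and 1511, with all 10 genes higher in each. Other scaling moved the median log2FC of all genes by -0.0258 to 0.0233. With the replicate number as a block, 1697 genes were higher, 1423 lower and all 10 genes higher. Deviations of same-numbered samples from their group means had correlations of 0.12, -0.00598 and 0.0483. With 3 samples per group, such values cannot show whether the numbers pair the samples. For 28 other named genes, 378 of 392 comparisons kept direction and call, 14 lost the call and 0 reversed. A gene that did not meet both thresholds, such as Atf4, counts as kept even where its padj alone crossed 0.05. For the counts of the other lists, 46 of 384 moved by over 1.5 times. Levels per length over all exons were lower than over the canonical transcript except for Cebpb, which has 1 length, and the order changed as given above. Chac1 and Cebpb have the fewest counts of the 10 genes, so counting error weighs most on them.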

Other observations

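The mTORC1 regulators beside Sesn2 and Ddit4 showed no shared direction. Of 13 genes, 1 rose and 1 fell, with a median log2FC of 0.03, close to the 0.01 of all tested genes. DESeq2, scaling by total count and no filter on low counts each gave 2 fallen genes. So did leaving out vehicle-treated replicate 1, vehicle-treated replicate 2 or S1P-treated replicate 1. Eif4ebp1, a translation repressor and ATF4 target, rose by 0.85 in log2 units (edgeR padj = 0.000384), and Nprl3, a subunit of the amino acid sensing GATOR1 complex, fell by 0.45 (edgeR padj = 0.0104) and lost that call when vehicle-treated replicate 3 was left out (edgeR padj = 0.0571).

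Genes of glutathione metabolism beside Chac1 had a median log2FC of -0.195 over 7 tested genes. In the main fit only Slc7a11 of these met both thresholds, and it rose. Gclm, named after its value was seen, was near the threshold with a log2FC of -0.297 (edgeR padj = 0.0134). DESeq2, RLE factors, scaling by total count and no filter on low counts each gave 1 fallen gene on this list. So did leaving out vehicle-treated replicate 3 or S1P-treated replicate 3. Of 14 tested p53 targets 4 rose and 2 fell, with a median of 0.11. Cdkn1a, the cell cycle inhibitor p21, rose by 1.06 in log2 units (edgeR padj = 3.65e-05) and Polk, a DNA polymerase, by 0.66 (edgeR padj = 0.000123), while Zmat3 (edgeR padj = 0.00108) and Aen (edgeR padj = 0.000941) each fell by 0.58.

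Nupr1, a small stress-induced nuclear protein gene linked to ATF4 and chosen after its values were seen, had raw counts of 10, 9 and 4 with vehicle and 45, 38 and 34 with S1P (log2FC 2.49, edgeR padj = 0.00032). The lists share genes, and their union without the 10 held 156 genes, of which 148 were tested, 54 rose and 11 fell. Of all tested genes 12.7% rose and 10.4% fell. Among the 54 are 17 genes of the hypoxia list. The lists were chosen with earlier results of these data known, so the union count is no independent evidence.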
